A study of Mus musculus with 16 samples.

Results

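*Setd7*, *5031434O11Rik* and *Mgst2* are neighbours on mouse chromosome 3, at chr3:51515319-51682677 of GRCm38. They were chosen on their levels by line in the vomeronasal organ (VNO), which were lower in High Runner (HR) than in Control lines for *Setd7* and *5031434O11Rik* and higher for *Mgst2*, and on the correlation of these levels over lines. They make up 3 of the 24407 genes with counts, and 3 of the 16507 genes that passed the filter on low counts. Their comparison between HR and Control lines, their levels by line and their correlations are therefore given as a description, with no test.

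The VNO, a chemosensory organ at the base of the nasal septum, was taken from mice of the Hsd:ICR background, 12 weeks old, from generation 88 of a breeding experiment. HR lines 3, 6, 7 and 8 had been bred for high voluntary wheel running, and Control lines 1, 2, 4 and 5 had been kept without that selection. The labels name no altered gene and no agent for any group. The VNOs of 3 mice of 1 line and sex were pooled before RNA was extracted, so each of the 16 libraries stands for 1 sex of 1 line, and the spread between single mice was not measured. The 2 libraries of a line come from different mice, and lines, 4 of each linetype, are the units that were bred apart.

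*Setd7* encodes a lysine methyltransferase with a SET domain, which places a single methyl group on lysine 4 of histone H3 and on lysines of other proteins, among them transcription factors. *Mgst2* encodes microsomal glutathione S-transferase of the MAPEG family, a membrane enzyme that conjugates glutathione to reactive lipids and can make leukotriene C4. *5031434O11Rik* is a transcript without a known protein, named by its clone, that starts inside *Setd7* and runs the opposite way.

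In GENCODE M21, *Setd7* (ENSMUSG00000037111.9) is a protein coding gene on the minus strand at chr3:51515319-51560879. *5031434O11Rik* (ENSMUSG00000097885.7) is listed as a processed transcript on the plus strand at chr3:51560035-51567117, with 3 transcripts. *Mgst2* (ENSMUSG00000074604.9) is a protein coding gene on the plus strand at chr3:51660360-51682677, with 9 transcripts. *Setd7* and *5031434O11Rik* are head to head, with start sites 844 bases apart and bodies that share 845 bases. Their exons share 131 bases, all of which lie in the 5′UTR in exon 1 of *Setd7* and in exon 2 of the longest *5031434O11Rik* transcript. *Mgst2* begins 93.2 kb after the end of *5031434O11Rik*, and the *Setd7* start site is 100.3 kb from the first base of the *Mgst2* coding transcript that RefSeq also starts with.

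**Figure D1:**
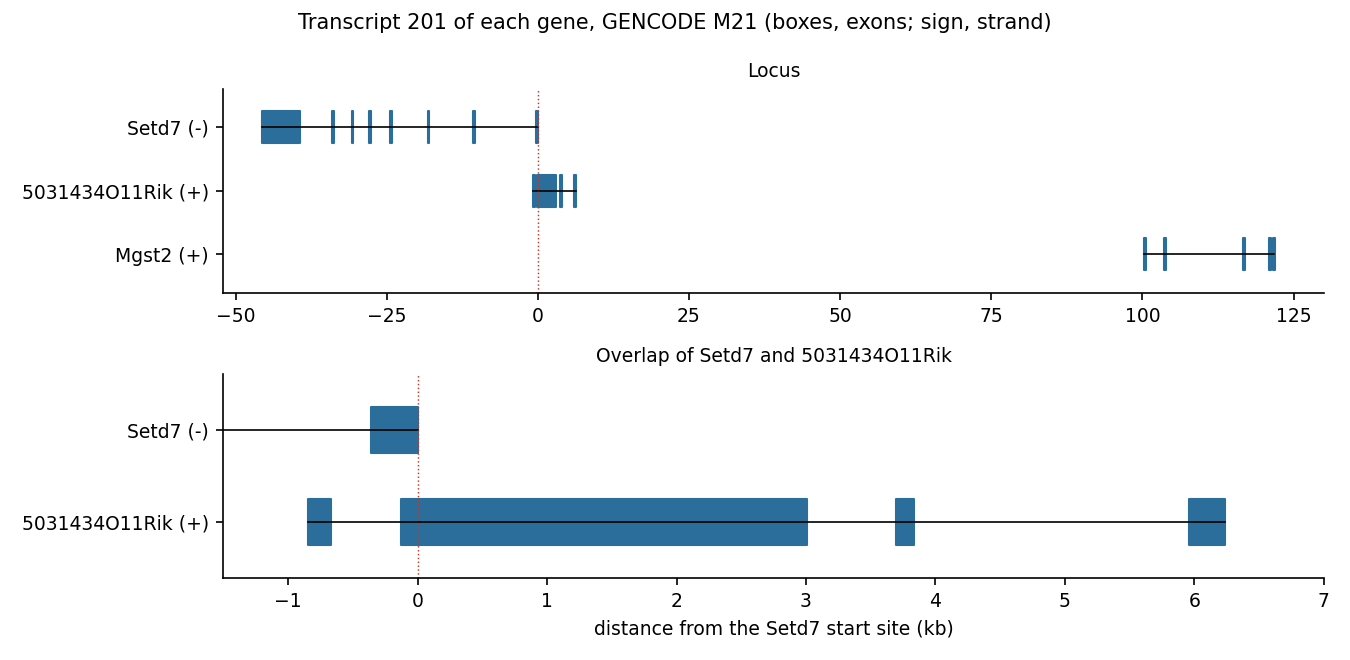
Exons (boxes) of 1 transcript of each gene by distance in kb from the *Setd7* start site (dotted line), over the whole locus above and at the head-to-head pair below, with the strand in brackets. The second exon of *5031434O11Rik* crosses the *Setd7* start site and covers 131 bases of its first exon, while the coding *Mgst2* transcript drawn starts 100.3 kb away.

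Reads were counted once per gene, and whether the strand was used in counting is not given in the sources used here. Without it, reads from the exon bases that both genes hold cannot be told apart. Of all stretches of 75 nucleotides in the transcripts, the length of a read, 59 occur in both genes on opposite strands, which is 0.55% of those of *Setd7* and 1.58% of those of *5031434O11Rik*. These are shares of sequence, not of reads. *Setd7* had 36.2 to 128 reads for each read of *5031434O11Rik*. If the strand was not used, a small share of *Setd7* reads could therefore be a larger share of the *5031434O11Rik* count. The part of such reads in that count was not tested. *Mgst2* shared 0, and on the same strand 100% of the stretches of each gene occur in no other gene. The alignment accepted no mismatch, so a read that crosses a base where a line differs from the reference was not counted; the sequence of the lines at this locus was not analysed here, and its part in the differences below was not tested.

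The bases before the start sites of *Setd7* and *Mgst2* are shown because these genes differed in opposite directions. They come from RefSeq (GRCm38.p6), whose promoter entries matched 2 of the 3 genes by symbol, *Setd7* and *Mgst2*. For *Setd7* the stretch is chr3:51560880-51561073 on the minus strand, and for *Mgst2* chr3:51660929-51661177 on the plus strand, each written 5′ to 3′. The *Setd7* stretch ends just before exon 1 of *Setd7*, and the *Mgst2* stretch ends just before the first exon of its coding transcripts. A non-coding *Mgst2* transcript begins further upstream, so the *Mgst2* stretch lies inside the annotated body of that gene. Capitals mark matches to CCAAT and TATAAA on either strand, which overlap where TATAAA is matched on both.

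Setd7: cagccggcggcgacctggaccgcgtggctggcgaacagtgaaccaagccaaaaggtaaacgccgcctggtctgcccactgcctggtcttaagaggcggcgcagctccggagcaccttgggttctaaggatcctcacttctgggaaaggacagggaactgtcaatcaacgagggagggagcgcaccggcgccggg

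Mgst2: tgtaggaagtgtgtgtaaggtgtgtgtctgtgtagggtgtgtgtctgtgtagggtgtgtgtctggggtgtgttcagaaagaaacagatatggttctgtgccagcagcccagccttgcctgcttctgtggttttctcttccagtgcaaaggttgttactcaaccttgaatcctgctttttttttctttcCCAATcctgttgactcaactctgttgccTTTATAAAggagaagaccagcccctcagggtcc

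In the 250 bases before the RefSeq start site, *Setd7* held 17 CG dinucleotides, more than 76.5% of 32851 mouse promoters, and 60.4% of its bases were G or C. *Mgst2* held 0 CG dinucleotides with 47.6% G or C, against a median of 6 over all promoters. TATAAA was found 32 bases before the *Mgst2* start site and, on the opposite strand, at 34 bases, and CCAAT at 62 bases. The *Setd7* window held no match to either motif, nor to GGGCGG, and the *Mgst2* window none to GGGCGG. The shares of all promoters with a match on either strand were 12.4% for TATAAA, 33.8% for CCAAT and 32.7% for GGGCGG. The *Setd7* stretch printed above also lies inside exon 2 of *5031434O11Rik*.

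Counts on genes ranged from 15998552 to 70875276 per library. Levels are given as CPM, the counts of a gene relative to the TMM-scaled total of its library. For comparisons between genes they are also given as RPKM, in which the authors divided by a length for the gene as well. The length implied by the deposited values was not the same in every library, as given below. The pattern of the sexes fitted the labels, with 25762 to 120625 counts of *Xist* in female and 10 to 273 in male libraries. Of the markers of vomeronasal neurons, *Omp* stood at 2050.0 ± 403 CPM in HR and 1994.2 ± 300 CPM among Control lines (SD, n = 4), and *Gnao1* and *Gnai2* were high in every library, but *Trpc2*, a channel of these neurons, was listed at 0 in all 16 libraries, as were both haemoglobin genes looked for. In tissue of mixed cells, fewer cells of a type and less RNA per cell cannot be told apart.

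*Setd7* was the most abundant of the 3 genes and was lower in HR lines. In Control males it stood at 178, 175, 172 and 185 CPM in lines 1, 2, 4 and 5, and in Control females at 170, 183, 157 and 138 CPM. In HR males it stood at 160, 135, 118 and 116 CPM in lines 3, 6, 7 and 8, and in HR females at 107, 140, 120 and 114 CPM. The libraries overlapped, since the HR line 3 male lay above the Control females of lines 4 and 5, and the HR line 6 female lay above the Control line 5 female; in 3 of the 64 pairs of an HR and a Control library the HR library was higher. Averaged over the sexes, each HR line (115 to 137 CPM) lay below each Control line (161 to 179 CPM). Line means were 126 ± 10.8 CPM in HR and 170 ± 8.11 CPM in Control lines (SD, n = 4), a difference of -25.4%, and the fitted log2 fold change was -0.42 (SE 0.08).

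*5031434O11Rik*, the antisense transcript, was lower in HR lines by a larger factor than *Setd7*. It stood at 3.7, 3.09, 4.26 and 3.55 CPM in males and 4.22, 5.05, 4.33 and 3 CPM in females of Control lines 1, 2, 4 and 5. Males of HR lines 3, 6, 7 and 8 stood at 2.17, 1.05, 1.46 and 1.01 CPM, and females at 0.845, 1.91, 1.45 and 1.4 CPM. Every HR library lay below every Control library. Behind these values are 23 to 92 reads per HR library and 47 to 304 per Control library. Line means were 1.41 ± 0.14 CPM in HR and 3.9 ± 0.441 CPM in Control lines (SD, n = 4), 2.76-fold lower in HR lines, with a log2 fold change of -1.46 (SE 0.19).

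*Mgst2* was the gene of the locus with higher levels in HR lines. In Control lines 1, 2, 4 and 5 it stood at 0.312, 0.503, 0.974 and 1.14 CPM in males and at 0.971, 0.567, 1.04 and 0.765 CPM in females. HR lines 3, 6, 7 and 8 gave 1.77, 2.79, 2.51 and 3.08 CPM in males and 1.8, 3.04, 2.68 and 2.77 CPM in females. Every HR library lay above every Control library, with 11 to 70 reads in Control and 49 to 127 reads in HR libraries. HR line 3 was the lowest of the HR lines in both sexes. The HR line mean was 2.55 ± 0.535 CPM against 0.784 ± 0.231 CPM in Control lines (SD, n = 4), 3.26-fold higher, with a log2 fold change of 1.71 (SE 0.25).

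**Figure D2:**
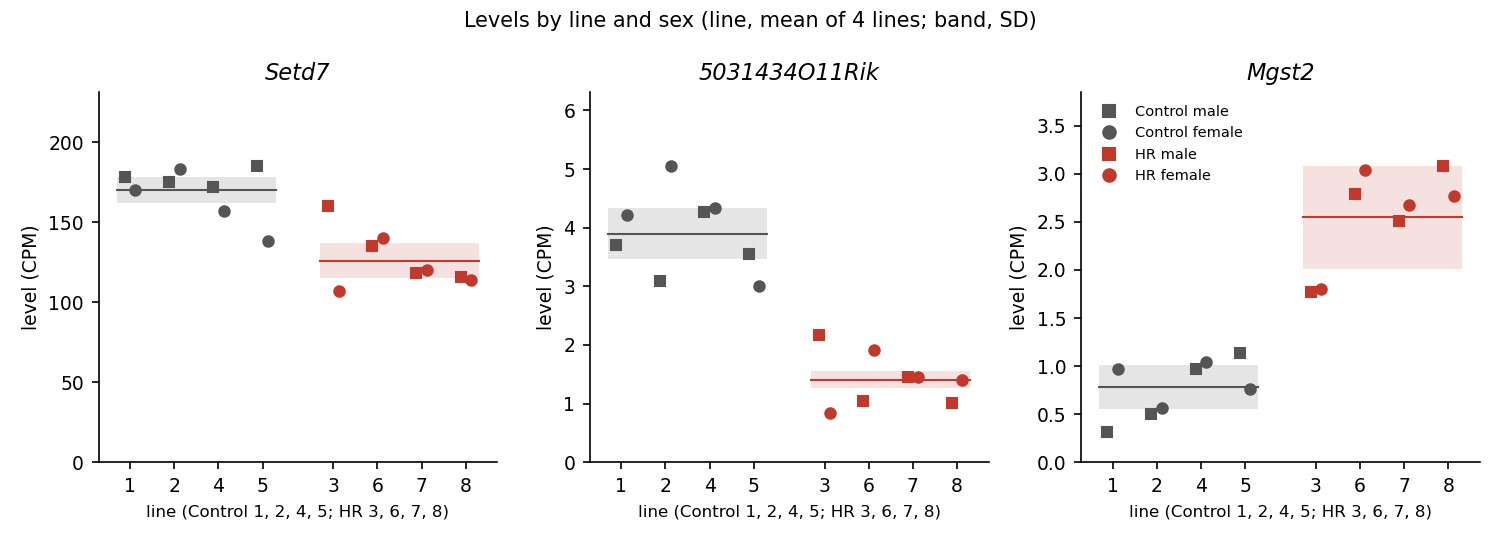
Level in CPM of each gene in the 16 libraries by line, with male pools as squares and female pools as circles, Control lines in grey and HR lines in red; horizontal lines are means of 4 lines and bands their SD. HR and Control libraries are apart for *5031434O11Rik* (0.845 to 2.17 against 3 to 5.05 CPM) and *Mgst2* (1.77 to 3.08 against 0.312 to 1.14 CPM) and overlap for *Setd7* (107 to 160 against 138 to 185 CPM).

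Over all 16507 genes, 0.0788% had HR libraries that all lay above or all below the Control libraries (0.0545% above, 0.0242% below), and 0.8% had line means that did not overlap. By these measures *5031434O11Rik* and *Mgst2* belong to the first group and all 3 genes to the second, which is how they were chosen. By the edgeR quasi-likelihood test, HR and Control lines differed at an adjusted *p* under 0.05 in 4 genes, 0.0242% of those tested, and at an unadjusted *p* under 0.05 in 3.3%. This fit counts the male and the female pool of each line as separate samples, and with counts summed by line or with line as a random effect 0 genes were called.

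The direction, on which the genes were chosen, was the same in each sex taken alone. For *Setd7* the log2 fold change was -0.42 in males (SE 0.11) and -0.42 in females (SE 0.12). For *5031434O11Rik* it was -1.36 in males (SE 0.28) and -1.56 in females (SE 0.28), and for *Mgst2* 1.81 in males (SE 0.42) and 1.60 in females (SE 0.27). These differences between the sexes can be tested, since sex played no part in the choice of the genes. The interaction of sex and linetype was -0.00 for *Setd7* (95% interval -0.35 to 0.34), -0.21 for *5031434O11Rik* (-1.06 to 0.64) and -0.22 for *Mgst2* (-1.30 to 0.85) on the log2 scale, with an adjusted *p* of 0.999988 for each by edgeR. An exact two-sided permutation test over lines gave *p* = 1, 0.771 and 0.657 in the same order, with 0.0286 the smallest it can give. Over all genes this interaction was called for 0% of 16757 genes, by edgeR, with 77 (0.46%) at an unadjusted *p* under 0.05, and DESeq2 also called 0.

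Sex itself was not called for any of the 3 genes. Females differed from males by -0.14 in *Setd7* (log2, 95% interval -0.30 to 0.03, adjusted *p* = 0.713 by edgeR), by 0.09 in *5031434O11Rik* (-0.32 to 0.49, adjusted *p* = 0.96) and by 0.13 in *Mgst2* (-0.39 to 0.65, adjusted *p* = 0.944). Over all genes, 0.188% were called between the sexes, and 0.506% with line as a block. The female pool was higher in 3 of 8 lines for *Setd7*, in 5 for *5031434O11Rik* and in 6 for *Mgst2*, and flipping the sign of each line's difference, an exact permutation test with 2 sides, gave *p* = 0.164, 0.797 and 0.57, with 0.00781 the smallest it can give. Male and female libraries stand in separate tables. The methods of the study describe 8 libraries, from HR and Control lines, sequenced together in the same lane. How the 16 libraries were spread over lanes or runs is not given in the sources used here. If the sexes were sequenced apart, a difference between the sexes could not be told apart from one between runs.

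The sexes of single lines could nevertheless lie far apart. In HR line 3 the difference of the female from the male pool was -0.58 on the log2 scale in *Setd7* and -1.31 in *5031434O11Rik*, and 0.02 in *Mgst2*. In HR line 6, by contrast, the female pool was higher by 0.83 in *5031434O11Rik* and by 0.06 in *Setd7*. Control line 1 held the largest gap for *Mgst2*, with 70 reads (0.971 CPM) in the female pool and 22 reads (0.312 CPM) in the male pool. The mean size of the gap between the pools of a line was 0.17 for *Setd7*, 0.47 for *5031434O11Rik* and 0.33 for *Mgst2*, against a median of 0.20 over all genes.

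Lines of the same linetype differed least in *Setd7*. The SD of line means within linetype, on the log2 scale, was 0.099 for *Setd7*, 0.15 for *5031434O11Rik* and 0.39 for *Mgst2*, and the median over all genes was 0.20. Smaller spreads were found in 17% of genes for *Setd7*, 35.9% for *5031434O11Rik* and 76.7% for *Mgst2*. The genes compared were not matched for level. *Setd7* had 2162 to 12561 reads per library, *5031434O11Rik* 23 to 304 and *Mgst2* 11 to 127, and few reads widen a spread on the log2 scale. The part of read number in these spreads was not tested. In the order of line means, *Setd7* ran from HR line 8 (115 CPM) through HR lines 7 (119), 3 (134) and 6 (137) to Control lines 5 (161), 4 (164), 1 (174) and 2 (179). Within each linetype, neighbours in this order lay closer together than the mean gap of 0.17 (log2) between the pools of a line. For *5031434O11Rik* the order was HR line 8 (1.2 CPM), 7 (1.46), 6 (1.48) and 3 (1.51), then Control line 5 (3.27), 1 (3.96), 2 (4.07) and 4 (4.29), and here too neighbours within a linetype lay closer together than the mean gap of 0.47 between pools. For *Mgst2* it was Control line 2 (0.535 CPM), 1 (0.642), 5 (0.954) and 4 (1.01), then HR line 3 (1.79), 7 (2.59), 6 (2.91) and 8 (2.93). The steps from Control line 1 to 5 and from HR line 3 to 7 were wider than the mean gap of 0.33 between pools, and the other steps within a linetype were not. HR line 3 stood at -0.48 (log2) from the mean of the HR lines.

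Per kilobase, *Setd7* was the highest of the 3 genes in every library, and the other genes changed places. On the RPKM scale *Setd7* stood at 20.2 to 26.7 in Control and 15.8 to 22.4 in HR libraries, *5031434O11Rik* at 4.5 to 7.47 and 0.865 to 2.66, and *Mgst2* at 0.762 to 2.72 and 3.86 to 6.52. Thus *5031434O11Rik* lay above *Mgst2* in each Control library, with an RPKM ratio of *Mgst2* to *5031434O11Rik* of 0.154 to 0.521, and below it in each HR library, with a ratio of 1.45 to 6.19. The RPKM of *Setd7* was 3.4 to 5.17 times that of *5031434O11Rik* in Control and 8.43 to 22 times in HR libraries. Against *Mgst2*, that of *Setd7* was 8.38 to 33.2 times higher in Control and 2.47 to 5.81 times higher in HR libraries. These RPKM ratios restate levels on which the genes were chosen.

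The ratio of reads within a library does not depend on how libraries were scaled. For each read of *5031434O11Rik*, Control libraries held 0.0843 to 0.322 reads of *Mgst2* (median 0.229) and HR libraries 0.815 to 3.05 (median 1.91). The HR line 3 male had the lowest HR ratio, at 75 reads of *Mgst2* and 92 of *5031434O11Rik*. For each read of *5031434O11Rik* there were 36.2 to 56.5 reads of *Setd7* in Control and 73.5 to 128 in HR libraries, also without overlap. Both ratios are built from the levels on which the genes were chosen, so neither is independent support. Given the levels above, the ratio of *Mgst2* to *5031434O11Rik* could not have overlapped. The 131 exon bases that the head-to-head genes share are the same in each library, and how many reads fell on them is not known from these files.

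**Figure D3:**
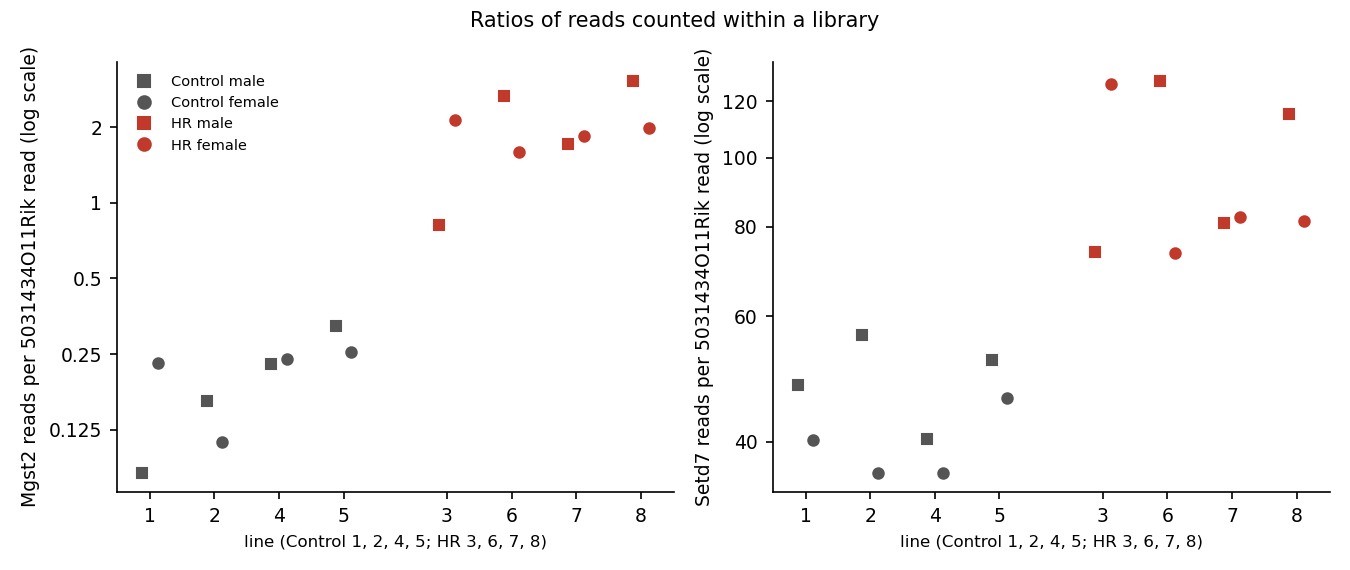
Reads of *Mgst2* (left) and of *Setd7* (right) per read of *5031434O11Rik* in each of the 16 libraries, on log scales, by line; squares are male and circles female pools, grey Control and red HR lines. Control ratios end at 0.322 and 56.5 and HR ratios begin at 0.815 and 73.5.

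The deposited RPKM of *5031434O11Rik* did not follow its counts by 1 factor. The length implied by count over RPKM, relative to that of *Setd7* in the same library, was 0.0916 to 0.106 in Control and 0.104 to 0.172 in HR libraries. For *Mgst2* the corresponding length was 0.0554 to 0.0637 in Control and 0.0617 to 0.0735 in HR libraries. The 3 transcripts of *5031434O11Rik* are 3731, 659 and 1694 bases long. How the length behind the RPKM was set in each library is not given in the sources used here. The median implied length of *5031434O11Rik* was 0.097 in Control and 0.122 in HR libraries, and a longer length gives a lower RPKM. The RPKM ratios to *5031434O11Rik* above include this shift, while the ratios of reads do not.

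With the mean of each linetype and sex removed, *Setd7* and *5031434O11Rik* still varied together among libraries, while *Mgst2* showed little correlation with either over all 16. Pearson's r over the 16 libraries was 0.78 for *Setd7* and *5031434O11Rik*, -0.10 for *Setd7* and *Mgst2* and 0.02 for *5031434O11Rik* and *Mgst2*. Correlation over lines was among the grounds on which these genes were chosen, so these values are no independent evidence. With *Mgst2*, r in the 8 male and the 8 female libraries was -0.29 and 0.18 for *Setd7* and -0.25 and 0.45 for *5031434O11Rik*. Between *Setd7* and *5031434O11Rik*, r was 0.65 in the 8 male libraries and 0.90 in the 8 female libraries. It was 0.67 without HR line 3 and 0.59 without HR line 3 and Control line 5. The shallowest library, the Control line 5 female, and the HR line 3 female were low in both genes, and both genes had an r with log2 total counts of 0.25 and 0.29 over the 16 libraries and of -0.02 and -0.08 over the 12 libraries without those lines. The points share lines, library depth and the exon bases named above, and the part of these in r was not tested.

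**Figure D4:**
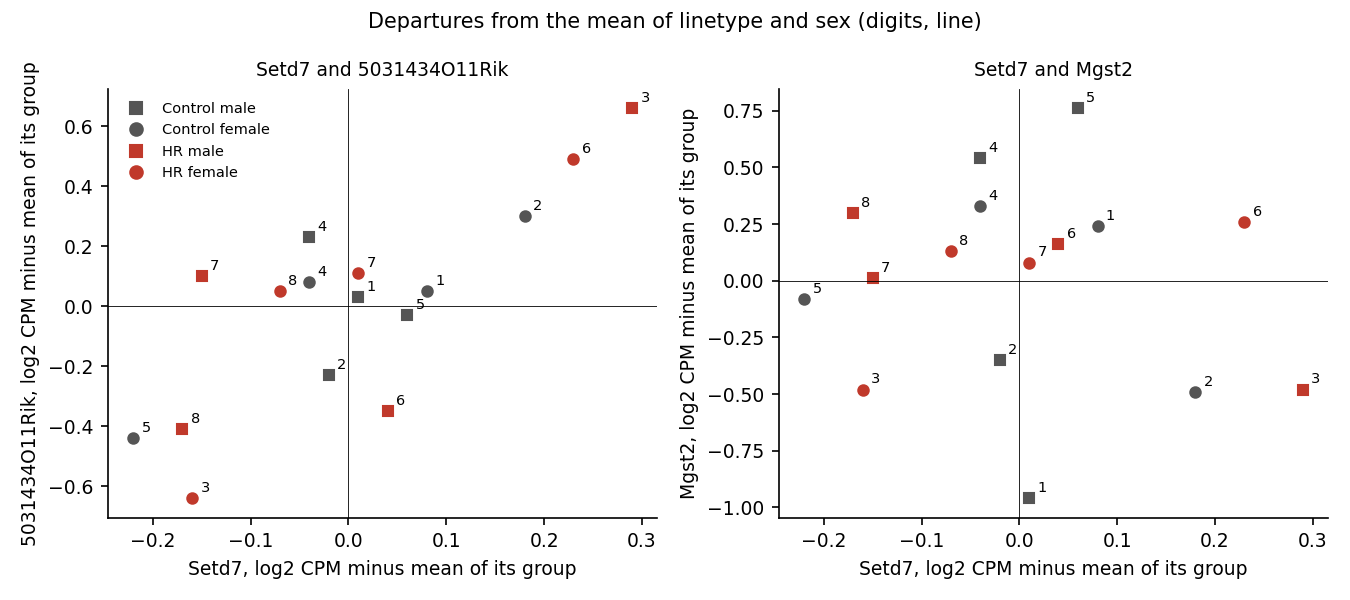
Departure of each of the 16 libraries from the mean of its linetype and sex in log2 CPM, with *Setd7* on the x axes and *5031434O11Rik* (left) or *Mgst2* (right) on the y axes; squares are male and circles female pools, grey Control and red HR, and digits give the line. On the left the points run from the low females of Control line 5 and HR line 3 to the high HR line 3 male (r = 0.78), and on the right no such run is seen (r = -0.10).

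For *Setd7* and *5031434O11Rik*, the departures of the male pools did not run with those of the female pools of the same lines. In *Mgst2* they were alike in several lines, with -0.48 in both pools of HR line 3. They were unlike in Control line 1 (-0.96 in the male and 0.24 in the female pool) and Control line 5 (0.76 and -0.08). Over the 8 lines, r between the departures of the male and the female pool was -0.26 for *Setd7*, -0.71 for *5031434O11Rik* and 0.28 for *Mgst2*. On line means with the linetype means removed, r over 8 lines was 0.47 for *Setd7* and *5031434O11Rik*, -0.54 for *Setd7* and *Mgst2* and -0.19 for *5031434O11Rik* and *Mgst2* (Spearman's rho 0.38, -0.55 and 0.10). Without the 2 lines farthest from the median of the first gene of each pair, r became 0.22, -0.89 and 0.90. The values over lines thus changed with the lines kept, and the sign changed for *5031434O11Rik* and *Mgst2* alone. In the 8 male libraries the departures of *Mgst2* ran against log2 total counts, with r = -0.97, and in the 8 female libraries with them, with r = 0.69.

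Genes elsewhere in the genome had departures as close to those of the 3 genes. The highest r with *Setd7* over the 16 libraries belonged to *Tbl1xr1* (0.92, also on chromosome 3), *Eif4ebp2* (0.90) and *Rbm28* (0.88), and the lowest to *Tubgcp2* (-0.92). For *5031434O11Rik* they were *Trim43c* (0.87), *Cma2* (0.86) and *Tram2* (0.85), with *Paip1* at -0.88, and for *Mgst2* *Eppk1* (0.84), *Ift46* (0.83) and *Cars2* (0.81), with *Sos2* at -0.83. These are the extremes of 16506 values each. Counted from the top, *5031434O11Rik* ranked 40 for *Setd7*, and *Setd7* ranked 13 for *5031434O11Rik*. *Mgst2* ranked 10632 for *Setd7* and 8367 for *5031434O11Rik*. The ranks are a description, since correlation was among the grounds of the choice. On plain line means, which follow linetype by the choice of the genes, *5031434O11Rik*, *Necab1* and *4933439K11Rik* came nearest to *Setd7*, *Setd7*, *Clec2g* and *Pask* to *5031434O11Rik*, and *Samsn1*, *Lppos* and *9430018G01Rik* to *Mgst2*.

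The genes around the locus gave small differences between HR and Control lines. Of the 9 other genes within 1 Mb, all had enough counts for the test and 0 had an adjusted *p* under 0.05 by edgeR's quasi-likelihood test or by DESeq2, with 1 at an unadjusted *p* under 0.05 by edgeR. Their log2 fold changes ran from -0.23 to 0.02 with a median of -0.07, 8 of them negative, where the median over all genes was 0.00. *Rab33b*, a small GTPase of the Golgi that ends 19.1 kb before *Setd7*, was the gene at unadjusted *p* = 0.0156, by edgeR across all genes, with 41.6 ± 1.75 CPM in HR and 47.2 ± 5.58 CPM in Control lines (SD, n = 4) and a log2 fold change of -0.18 (SE 0.07, adjusted *p* = 0.999686), or -0.096 without Control line 2. *Maml3*, a co-activator of Notch signalling that lies 3.23 kb after *Mgst2*, stood at 15.7 ± 1.02 and 16.5 ± 0.477 CPM (log2 fold change -0.08, SE 0.06). *Naa15*, a subunit of the N-terminal acetyltransferase NatA, gave -0.06 (SE 0.06), and *Foxo1*, a transcription factor of insulin signalling, -0.07 (SE 0.05). For the others the log2 fold change was 0.02 in *Ccrn4l*, the deadenylase-related gene now named *Noct*, -0.02 in *Elf2*, -0.00 in *Ndufc1*, -0.22 in *4930577N17Rik* and -0.23 in *Mgarp*, the last pair with SE of 0.21 and 0.27 at as few as 8 and 6 reads. Of these genes 0 had HR libraries all above or all below the Control libraries. Within 2 Mb, 19 other genes were tested and 0 were called by edgeR, with 1 at an unadjusted *p* under 0.05. Over all genes 0.0242% were called by edgeR, 3.3% had an unadjusted *p* under 0.05 and 0.0788% had libraries without overlap. At these shares, a set of 9 or 19 genes without a call or a gap does not stand apart from all genes.

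**Figure D5:**
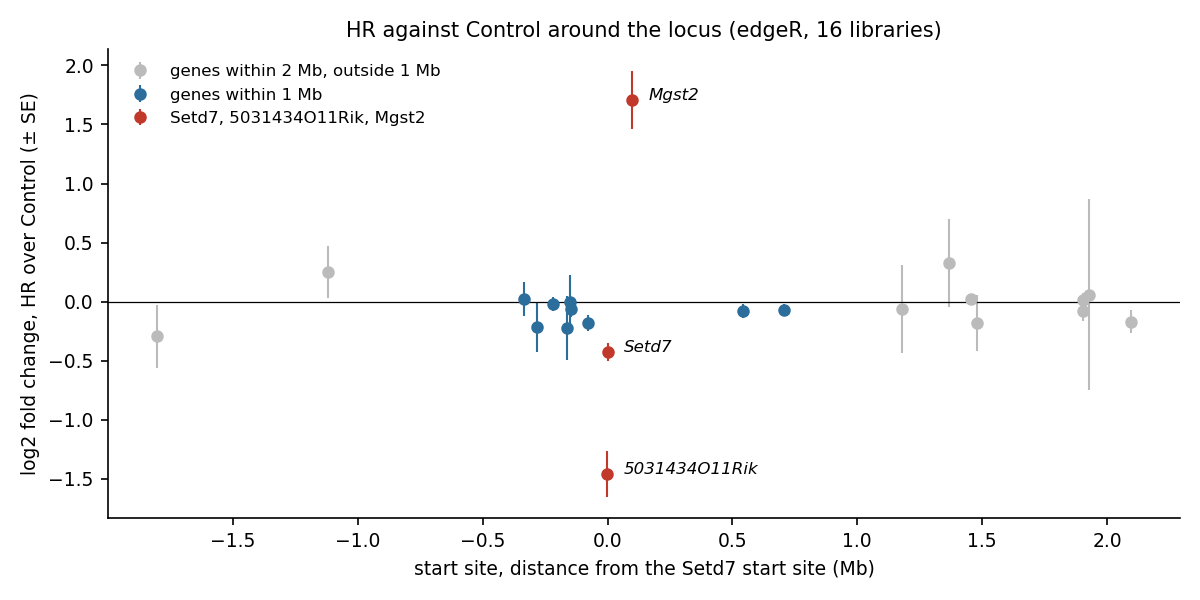
Log2 fold change of HR over Control lines (± SE, 16 libraries) by the distance of each gene's start site from that of *Setd7* in Mb, for *Setd7*, *5031434O11Rik* and *Mgst2* (red), the 9 genes within 1 Mb (blue) and further genes within 2 Mb (grey). The blue points lie between -0.23 and 0.02, and the red points at -0.42, -1.46 and 1.71.

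Lines of the same linetype were also compared for these neighbours. At an adjusted *p* under 0.05 by edgeR's F test, 0 of the 9 genes within 1 Mb differed between lines within linetype, where 27.7% of all genes did, and DESeq2 called 2. Within 2 Mb 4 of 19 did.

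Genes that work with *Mgst2* are read against all genes, of which 0.0242% were called and 3.3% had an unadjusted *p* under 0.05, so that a list of this size without a call does not stand apart from them. None of the 5 other MAPEG genes had an adjusted *p* under 0.05 by edgeR (0 at an unadjusted *p* under 0.05), and their median log2 fold change was 0.12 (-0.44 to 0.23). *Alox5ap*, which presents arachidonic acid to 5-lipoxygenase, stood at 11.8 ± 0.618 CPM in HR and 10 ± 1.46 CPM in Control lines (log2 fold change 0.23, SE 0.13). *Ltc4s*, the main leukotriene C4 synthase, stood at 0.597 ± 0.143 against 0.813 ± 0.366 CPM (-0.44, SE 0.29, or -0.173 without Control line 4). *Mgst1*, a detoxifying relative, stood at 77.6 ± 9.43 against 71.4 ± 3.92 CPM (0.12, SE 0.08). Among 13 tested genes of leukotriene synthesis, export, breakdown and reception, *Mgst2* left out, 0 were called by edgeR and 0 had an unadjusted *p* under 0.05, with a median of -0.03. DESeq2 called 0 of the other genes of either list. *Alox5*, the 5-lipoxygenase itself, stood at 0.89 ± 0.367 CPM in HR and 1.2 ± 0.382 CPM in Control lines (-0.43, SE 0.28).

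*Setd7* is one of many lysine methyltransferases, and 33 other genes of a list of methyltransferases, most of them acting on lysine, were tested. By edgeR and by DESeq2 0 were called, 3 had by edgeR an unadjusted *p* under 0.05 (3.3% of all genes did), and the median log2 fold change was 0.02 (-0.30 to 0.58). The genes at an unadjusted *p* under 0.05 were all higher in HR lines, *Setd3*, the methyltransferase of actin histidine, with 148 ± 19 against 120 ± 15.2 CPM (0.31, SE 0.10), *Ehmt1*, which methylates lysine 9 of histone H3, with 79.4 ± 39.5 against 53.3 ± 13.8 CPM (0.58, SE 0.27, or 0.311 without HR line 6), and *Smyd2* with 188 ± 28 against 159 ± 26.5 CPM (0.24, SE 0.11). Their adjusted *p* was 0.999686. Of 19 genes for proteins known as substrates of SETD7, with the demethylase gene *Kdm1a*, 0 were called by either tool and by edgeR 0 had an unadjusted *p* under 0.05, with a median of 0.01 (-0.25 to 0.11). *Dnmt1*, the maintenance DNA methyltransferase, *Hif1a*, the hypoxia factor, and *Trp53* gave -0.09 (SE 0.06), -0.11 (SE 0.08) and -0.12 (SE 0.10), of which *Trp53* came to -0.019 without Control line 4.

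Markers of other cell types were measured beside these genes. Of 6 mast cell markers, cells that make leukotriene C4, 0 were called and 2 had an unadjusted *p* under 0.05 by edgeR (3.3% of all genes did), *Cpa3* (10.2 ± 0.73 against 7.77 ± 1.42 CPM in Control lines) and *Mcpt4* (5.78 ± 1.21 against 3.88 ± 1.2 CPM). The median log2 fold change of the 6 markers was 0.43 (-0.11 to 0.60), and *Kit*, at -0.11, was lower in HR lines. Their summed level ran from 46.4 to 58.9 CPM over HR lines and from 29.9 to 53.7 CPM over Control lines. The summed level of 5 endothelial markers ran from 32.5 to 84.8 CPM in HR and from 50.1 to 93.3 CPM in Control lines (median log2 fold change -0.36), and that of 4 markers of progenitors and immature neurons from 34.2 to 54.7 and from 42.1 to 58.9 CPM (median -0.35, with *Neurod1* at an unadjusted *p* under 0.05). In the remaining groups the median was 0.05 for 3 vomeronasal neuron markers, -0.01 for 6 macrophage markers, -0.09 for 5 markers of glia, 0.04 for 4 markers of cartilage and bone and 0.10 for the 1 red blood cell marker tested, with 0 called in each by edgeR. DESeq2 called 0 of the markers of any group. The part of cell makeup in the levels of *Setd7*, *5031434O11Rik* and *Mgst2* was not tested.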

How the data were processed

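RNA of 16 VNO pools was depleted of ribosomal RNA and sequenced as single-end reads of 75 nucleotides in directional libraries; pools had RNA integrity numbers of at least 8.30. The authors aligned reads to GRCm38 with STAR 2.6.1d, accepting no mismatch and no read with several locations. The counts are reads per gene as deposited, without normalization, and the RPKM values were computed by the authors with Cufflinks tools, per gene length and library size. The counting tool and annotation are not given in the sources used here. In the male count table, 4 summary entries that name no gene (34.9% to 37.3% of its totals) were left out, as were 4 entries with repeated names, and columns of male libraries were matched to lines through the bracketed names in the sample titles. SD describe the spread between lines. SE and intervals give the uncertainty of a fitted log2 difference with pools as the units. In fits of both sexes they take no account of the line that a male and a female pool share.

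Counts were fitted with edgeR 4.0.16 in R 4.3.3 (TMM, filterByExpr with a minimum count of 10, quasi-likelihood tests, terms for sex and linetype), with Benjamini-Hochberg adjustment over all genes tested and a threshold of 0.05. Log2 CPM had a prior count of 2. Further steps used scipy 1.17.1, pandas 2.3.3 and matplotlib 3.10.9 in Python 3.11.15. The fits were also run on simulated counts with planted changes. These counts were drawn independently for each library, without the correlation between the pools of a line. They therefore cannot show how the fits behave where pools share a line. Alternatives were DESeq2 1.42.0, other scalings, no filter, limma 3.58.1 on voom weights with line as a random effect or on log2(RPKM + 1) and log2(RPKM + 0.1), line sums, each sex alone, wider and narrower windows, and leaving out each line. Lines are nested in linetype, so a line term was used for sex and the interaction alone. The line number in the labels pairs the male with the female pool, and across genes their departures from group means had correlations of 0.321 to 0.708. Positions come from GENCODE M21 on GRCm38, found for 23956 genes.

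The 3 genes and the gene lists were chosen with earlier results of these data known. Genes named are the 3 genes, every tested gene within 1 Mb, the called or else up to 3 genes of smallest unadjusted *p* in each list, and per gene the 3 highest and the 1 lowest r over libraries and the 3 highest over line means. *Omp*, *Gnao1*, *Gnai2*, *Trpc2*, *Xist*, *Kdm1a* and mast cell genes are named as checks.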

Additional observations from a re-analysis of the deposited data

How the results depend on the processing

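The direction of the HR against Control difference of *Setd7*, *5031434O11Rik* and *Mgst2* was the same under every alternative run. The genes were chosen on this direction, and their line means did not overlap, so its stability is no independent support. Leaving out each line gave log2 fold changes of -0.468 to -0.382 for *Setd7*, -1.525 to -1.386 for *5031434O11Rik* and 1.569 to 1.863 for *Mgst2*. On log2(RPKM + 0.1), *5031434O11Rik* came to -1.837, and on log2(RPKM + 1) *Mgst2* came to 1.180; the cause was not tested. The count of genes called between HR and Control lines, 4, was 30 with DESeq2 and 0 with line sums, with line as a random effect in limma-voom, in males alone and in females alone. It ran from 1 to 17 when lines were left out, with 1 without Control line 1 or HR line 7, 17 without Control line 2, 10 without Control line 5 and 9 without HR line 3. The count called between the sexes, 31, was 177 with DESeq2, 19 without the filter and 13 to 25 without single lines, falling by over 1.5 times without Control lines 1 (18), 2 (15) and 5 (16) and HR lines 3 (19), 6 (18), 7 (13) and 8 (13). DESeq2 called 7274 genes between lines within linetype, against 4757, and 2 of the neighbours within 1 Mb, against 0.

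With line as a replicate block, pairing the sexes of a line, 87 genes were called between the sexes (0.506%), and the adjusted *p* of *Setd7*, *5031434O11Rik* and *Mgst2* were 0.379, 0.85 and 0.695 by edgeR, so the block changed no call of these. The interaction of *Setd7*, near 0, turned to 0.009 with the block and 0.007 on line means. Without single lines it ran from -0.093 to 0.152, that of *5031434O11Rik* from -0.507 to 0.242 and that of *Mgst2* from -0.548 to 0.124, and the sex difference ran from -0.024 to 0.287 in *5031434O11Rik* and from -0.029 to 0.244 in *Mgst2*; the cause was not tested. Of 342 values of 19 named neighbours and list genes, 15 changed sign, all in 5 neighbours. These were *Ccrn4l* (-0.002 with line sums, -0.025 in females, -0.094 to 0.135 without single lines), *Foxo1* (0.003 in males), *Ndufc1* (0.097 in females, -0.128 to 0.143), *Elf2* (-0.058 to 0.047) and *Mgarp* (-0.425 to 0.043). Without single lines the log2 fold changes of most other named neighbours and list genes, none of them called, also moved by over 1.5 times. Among *Setd7*, *5031434O11Rik* and *Mgst2*, depth limits the last pair most, at 23 and 11 reads in their lowest libraries.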
